A study of Mus musculus with 18 samples.

Results

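The genes described here were 53 listed ligands, receptors, modulators and targets of Wnt signalling, matched by mouse symbol to a table of read counts for 32285 genes. Those with at least 10 counts summed over all 18 libraries were kept, which left 51 members. Wnt3 and Fzd9 had 4 and 6 counts and were left out. Tissue had been cut from frozen sections of 3 kidneys of male C57BL/6 mice of the line iKspCre-Pkd1del, and sorted into 3 region types, namely non-cystic, cystic with little F4/80 (F4/80-low) and cystic with much F4/80 (F4/80-high). F4/80 is a surface protein of macrophages encoded by Adgre1. Each kidney gave 2 libraries of each region type, so each region type had 6 libraries. The region types were compared to see what sets the surroundings of a cyst apart, and those with many macrophages from those with few.

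Genotype and treatment were the same in the 3 region types. The mice carried a tamoxifen-inducible Cre specific to the kidney and loxP sites around exons 2 to 11 of Pkd1, a genotype labelled Pkd1 KO, and had been given tamoxifen by gavage (12.5 mg/kg on postnatal days 18 and 19). They were taken at a mildly cystic stage. Ksp stands for the kidney-specific cadherin promoter, which is active in tubule epithelium, so the other cell types of the tissue were not targeted. Non-cystic regions are thus tissue of the same Pkd1-deleted kidneys and not of untreated mice. The labelled age was 269 for kidneys 1 and 3 and 297 for kidney 2, with no unit given. The labels do not say whether the kidneys came from separate mice.

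Wnt proteins are secreted, lipid-modified ligands that bind Frizzled receptors together with the co-receptors LRP5 and LRP6. Binding halts the breakdown of beta-catenin, which then enters the nucleus and, with TCF/LEF factors, turns on target genes, several of which encode inhibitors of the pathway itself. Other Wnt signals run through Frizzled and ROR receptors without beta-catenin and act on cell polarity and movement. In the developing kidney Wnt9b and Wnt4 drive nephron formation. In the adult kidney the pathway has been studied in injury, fibrosis and cyst growth.

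The unit of replication was the kidney. The paired libraries from each region type within a kidney were added up, and the 9 sums were compared with edgeR's quasi-likelihood test with the kidney as a block. A gene is called, and said to have risen or fallen, where its p-value adjusted by Benjamini-Hochberg over the 16034 genes tested was below 0.05. Levels are in CPM, each gene's counts over 1000000 counts of the library, scaled by the trimmed mean of M values and given as mean ± SD over 3 kidneys or for kidneys 1, 2 and 3 in that order. Fold changes are on the log2 scale with a standard error (SE) over 3 kidneys. The filter on low counts kept 41 of the 51 members. Of these, 10 (Wnt2, Wnt2b, Wnt4, Wnt7a, Wnt7b, Wnt10a, Sfrp5, Rspo3, Axin2 and Lef1) would not have passed without their F4/80-high sums. This favours a higher F4/80-high value in them, and a lack of overlap with the other region types. The other 10 (Wnt6, Wnt9a, Wnt9b, Wnt11, Fzd10, Ror2, Sfrp4, Rspo1, Lgr5 and Lgr6) were too low to be tested.

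Library totals ran from 5366651 to 9188813 counts. The library kit does not mark the strand, so the reads of 12 members cannot be told from those of a gene on the other strand: Wnt5a, Wnt7b, Wnt11, Fzd5, Fzd6, Sfrp2, Rspo3, Notum, Axin2, Ctnnb1, Lef1 and Tcf7l1. Coordinates are those of the GENCODE annotation of GRCm38. The cell types in the tissue moved with the region type. The summed level of 10 macrophage markers was 67.6 to 108.6 CPM over the kidneys in non-cystic, 265.5 to 359.5 CPM in F4/80-low and 1208 to 2483 CPM in F4/80-high regions. For 8 fibroblast markers it was 50.7 to 72.6, 272.7 to 359.8 and 714.3 to 1458 CPM, and for 6 smooth muscle and pericyte markers 61.5 to 131.2, 91.2 to 205.9 and 281.1 to 462.4 CPM. The 6 proximal tubule markers summed to 3867 to 5547, 2841 to 3936 and 118.1 to 761.0 CPM, and the 5 markers of injured tubule to 4.51 to 12.8, 165.1 to 577.5 and 864.3 to 979.5 CPM. Of the markers of these 5 cell types none was at 0 counts in any region type. In such bulk tissue fewer cells of a type and less RNA per cell cannot be told apart. The part of these cell types in the results below was not tested.

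**Figure D1:**
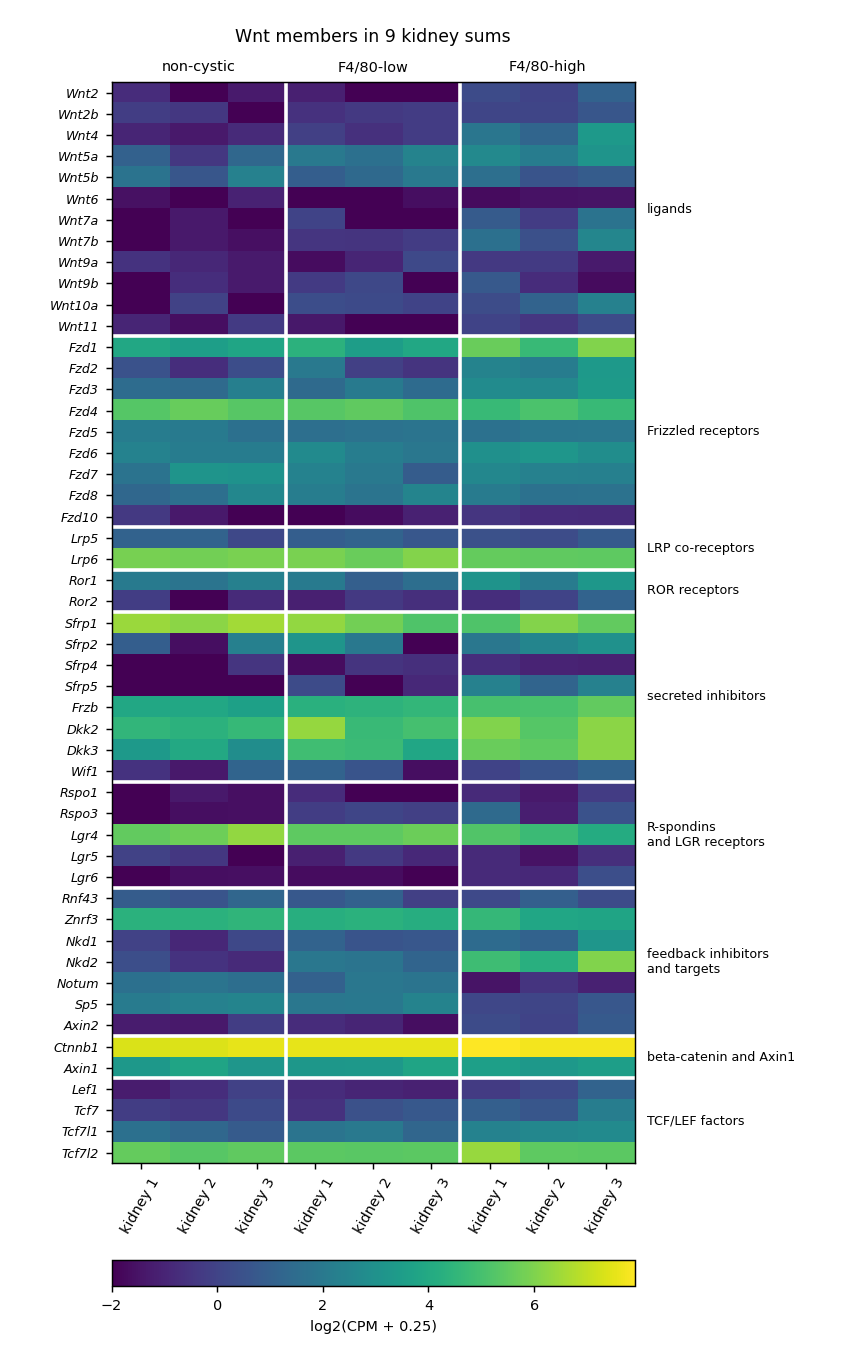
Level of the 51 members in the 9 kidney sums, as log2(CPM + 0.25). Rows are genes grouped by role, columns are kidneys 1 to 3 of non-cystic, F4/80-low and F4/80-high regions. Ctnnb1 is bright in all 9 sums, most ligands are dark in non-cystic and F4/80-low regions, and Notum and Sp5 darken in F4/80-high regions.

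F4/80-high against non-cystic regions gave the most calls. There 19 members rose and 4 fell, and 18 of the 41 tested were not called. Over all genes tested 19.7% were called higher and 19.5% lower. The median log2 fold change was 1.33 over the 41 members and 0.04 over all genes tested. With scaling by total counts, which moved the median of all genes up by 0.61, 24 members were called higher and 2 lower, against 41.2% and 9.12% of all genes. Of the 10 members that passed the filter through F4/80-high sums 7 rose, and of the other 31 members 12 rose and 4 fell, with a median of 0.38. With no filter the median was 1.32 over the 51 members and 0.17 over 27440 genes. These medians rest on unlike cutoffs, as members needed 10 or more counts and the other genes any count. F4/80-high libraries alone could bring a member to 10 counts, so this does not remove the effect of a filter. All 19 higher and all 4 lower members moved the same way in 3 of 3 kidneys. So did 3141 of all 3156 genes called higher and 3127 of all 3133 called lower. Kidney 3 held the highest F4/80-high level for 17 of the 19, as it did for 65.4% of the 3156 genes that rose.

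F4/80-high against F4/80-low regions shared the F4/80-high libraries with that comparison. Here 11 members rose, 3 fell and 27 were not called, while 10.3% of all genes tested were called higher and 14% lower. The median log2 fold change was 0.65 over the 41 members and 0.04 over all genes tested. Kidney 3 held the highest F4/80-high level for 11 of the 11, against 68.0% of the 1649 genes that rose. Scaling by total counts, which moved the median of all genes up by 0.48, turned 11 higher and 3 lower into 20 and 2, while the shares of all genes became 26.3% and 6.99%.

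F4/80-low against non-cystic regions gave no call among the 41 members, neither higher nor lower, in edgeR. Over all genes tested 1.51% were called higher and 0.0249% lower. At an unadjusted p below 0.05, 9 members were higher and 0 lower, against 9.35% and 2.35% of all genes. The 9 were Wnt5a, Wnt7b, Sfrp5, Frzb, Dkk2, Dkk3, Rspo3, Nkd1 and Nkd2. The DESeq2 Wald test called 2 members higher and 0 lower, against 3.75% and 0.462% of all genes. They were Wnt5a, with a log2 fold change of 1.43 and an adjusted p of 0.0239, and Nkd2, with 2.33 and 0.00224. In edgeR Wnt5a had 1.46 ± 0.37 (adjusted p = 0.0989) and Nkd2 2.35 ± 0.64 (adjusted p = 0.159). edgeR also called Wnt5a with no filter (1.47, adjusted p = 0.0481), and Nkd2 (2.22, adjusted p = 0.00812) and Dkk3 (1.15, adjusted p = 0.0213) without kidney 3. In the same comparison 4 of 10 macrophage, 4 of 7 tested fibroblast and 4 of 5 injured tubule markers rose.

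**Figure D2:**
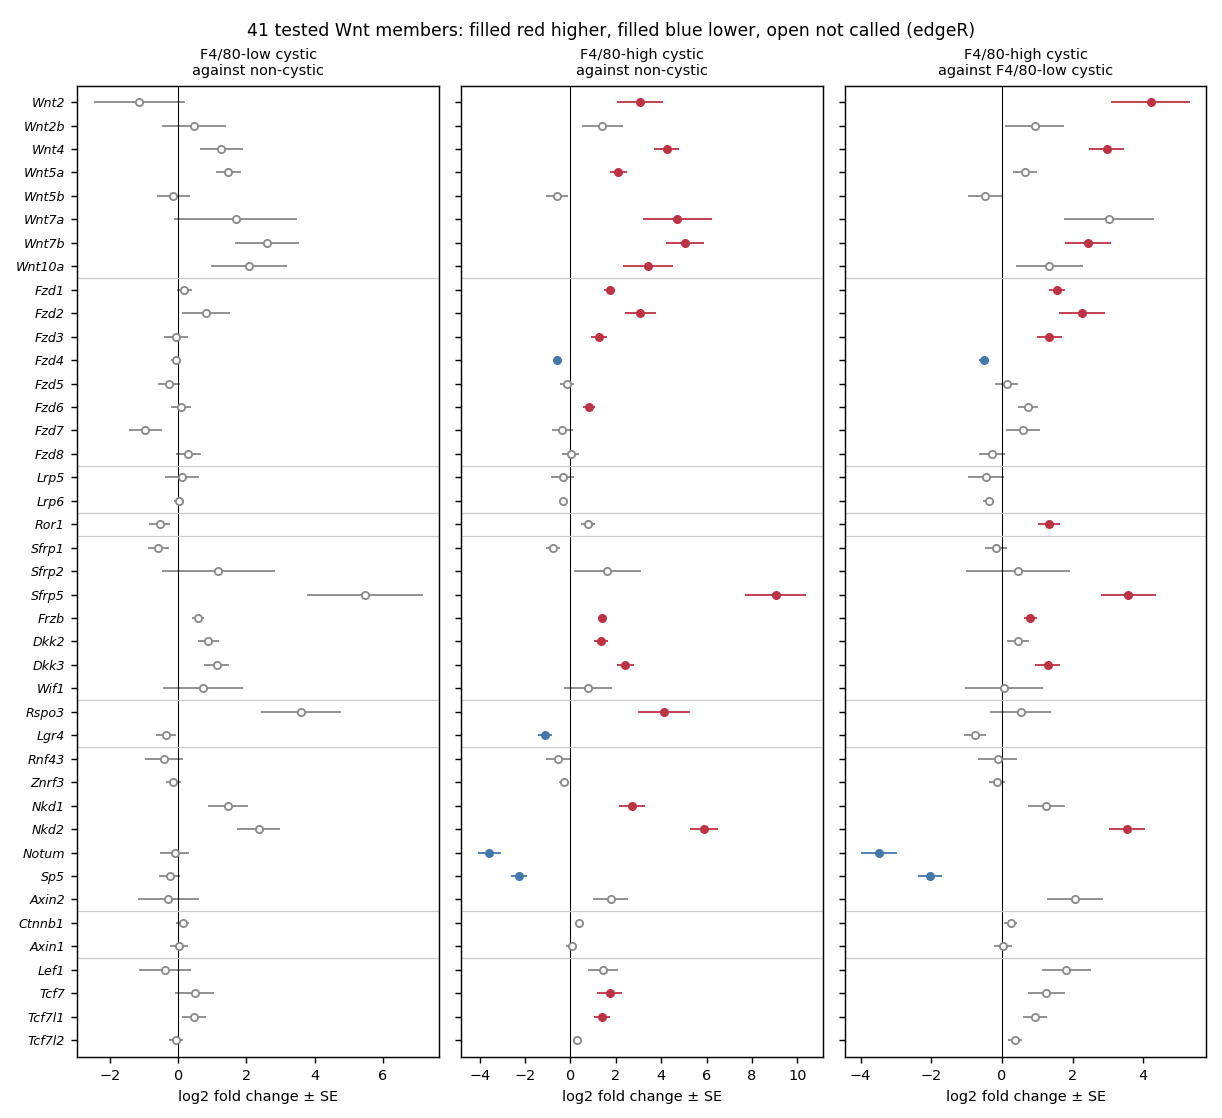
Log2 fold change ± SE (x axes, fitted by edgeR over 3 kidneys) of the 41 tested members (y axis, in role order) in the 3 comparisons. Filled red points rose, filled blue points fell and open points were not called: no point is filled in the left panel, 23 are in the middle panel and 14 in the right panel. Under scaling by total counts Fzd4 has no fall in the middle panel (0.01). The Sfrp5 points in the left and middle panels rest on 0 non-cystic counts and depend on the prior count of the fit.

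Of 13 listed Wnt ligand genes 8 were tested. In F4/80-high against non-cystic regions 6 of the 8 rose (19.7% of all genes did), and 3 rose against F4/80-low regions (10.3% of all genes did). However, 6 ligands would not have passed the filter without their F4/80-high sums, and 5 of the 6 that rose were among these. Of the other 2 ligands, Wnt5a rose and Wnt5b was not called. Their levels were low throughout. Per kilobase of exon the highest ligand in F4/80-high regions was Wnt4 at 1.24 CPM per kb, followed by Wnt10a at 1.07 and Wnt5a at 0.799. In non-cystic regions Wnt5b led at 1.18 CPM per kb, and Wnt5a followed at 0.197.

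Wnt4 (chromosome 4, 137277489 to 137299726), the ligand that turns kidney mesenchyme into epithelium during development, stood at 0.265, 0.146 and 0.311 CPM in the 3 non-cystic sums. It was at 0.680, 0.394 and 0.602 CPM in F4/80-low and at 3.47, 2.13 and 10.0 CPM in F4/80-high regions. No kidney's F4/80-high level overlapped those of the other region types, an order that the filter favours for this gene. The log2 fold change was 4.24 ± 0.56 against non-cystic (adjusted p = 0.0005) and 2.97 ± 0.50 against F4/80-low regions (adjusted p = 0.00371). Library 2 of kidney 3 had the highest level, at 16.4 CPM, and without kidney 3 the second fold change was 2.37, still called.

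Wnt7b (chromosome 15, 85535437 to 85582473), a ligand made by collecting duct epithelium, had 3 counts over the non-cystic libraries and 179 over the F4/80-high ones. Its levels were 0, 0.146 and 0.0776 CPM in non-cystic, 0.476, 0.460 and 0.602 CPM in F4/80-low and 2.89, 1.09 and 5.63 CPM in F4/80-high regions, and the 3 region types did not overlap. The filter let Wnt7b in through its F4/80-high sums alone, which favours their standing apart. The ratio of F4/80-high to non-cystic counts per effective library size was 39.4, with an exact 95% counting interval of 13.3 to 192.9. The fitted log2 fold change was 5.04 ± 0.85 (adjusted p = 0.00164), and 4.28 without F4/80-high library 2 of kidney 3. Against F4/80-low regions it was 2.43 ± 0.66 (adjusted p = 0.0254), a call that ended without that library (1.73, adjusted p = 0.108). Principal cell markers of the collecting duct summed to 135.8 to 253.1 CPM in non-cystic and 35.2 to 262.3 CPM in F4/80-low regions. In F4/80-high regions they summed to 32.9 to 174.5 CPM. Of these markers 1 of 6 fell in F4/80-high against non-cystic regions, where 19.5% of all genes tested did.

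Wnt7a (chromosome 6, 91363981 to 91411363), a close relative of Wnt7b, was at 0, 0.146 and 0 CPM in non-cystic, 0.748, 0 and 0 CPM in F4/80-low and 1.52, 0.594 and 3.20 CPM in F4/80-high regions. Only kidney 1 had any count in F4/80-low regions. Its counts were 99 against 2 in non-cystic regions, a ratio of 32.7 (8.82 to 273.8), and the fitted change was 4.71 ± 1.53 (adjusted p = 0.0356). That call was not made by the DESeq2 Wald test (adjusted p = 0.113). Both non-cystic counts came from library 2 of kidney 2, without which the fitted change was 8.13. Wnt7a was called against F4/80-low regions only without F4/80-low library 2 of kidney 1, which held its F4/80-low counts (7.61, adjusted p = 0.0174).

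Wnt10a (chromosome 1, 74791516 to 74804179), a ligand best known from teeth and skin, was at 0, 0.732 and 0 CPM in non-cystic, 1.02, 0.920 and 0.752 CPM in F4/80-low and 0.999, 1.98 and 4.92 CPM in F4/80-high regions. The non-cystic level came from kidney 2, and the F4/80-high levels lay above it in each kidney. Wnt10a would not have passed the filter without its F4/80-high sums, which favours this order. Its log2 fold change was 3.41 ± 1.10 against non-cystic (adjusted p = 0.0345), 8.19 without non-cystic library 2 of kidney 2, and 2.08 without kidney 3 (adjusted p = 0.101). Against F4/80-low regions it was 1.34 ± 0.94 and not called.

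Wnt2 (chromosome 6, 17988940 to 18030585), a ligand of the lung mesenchyme in development, was at 0.353, 0 and 0.155 CPM in non-cystic, 0.204, 0 and 0 CPM in F4/80-low and 0.947, 0.743 and 1.93 CPM in F4/80-high regions. Its F4/80-high levels were above every other sum, but only those sums reached the filter's cutoff, which favours this order. Its fold change was 3.06 ± 1.01 on the log2 scale against non-cystic (adjusted p = 0.036) and 4.20 ± 1.12 against F4/80-low regions (adjusted p = 0.0236), where the counts were 68 against 3 (ratio 17.1, interval 5.61 to 84.96). The 3 F4/80-low counts came from library 1 of kidney 1. Without it the second fold change was 7.11, and without any 1 kidney neither call was made (adjusted p of 0.0637 to 0.155).

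Wnt5a, the main ligand of ROR receptors, rose from 1.54 ± 0.912 CPM in non-cystic to 6.25 ± 2.16 CPM in F4/80-high regions (SD, n = 3), by 2.11 ± 0.36 on the log2 scale (adjusted p = 0.0018). Its F4/80-low level lay between, at 3.94 ± 1.16 CPM, above every non-cystic sum and overlapping the F4/80-high ones. The related Wnt5b was not called, with 3.13 ± 1.79 CPM in non-cystic and 1.89 ± 0.840 CPM in F4/80-high regions. Wnt2b, a relative of Wnt2, had 0.377 ± 0.331 CPM in non-cystic and 0.969 ± 0.309 CPM in F4/80-high regions and was not called.

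Of the untested ligands, Wnt11, which the ureteric bud tip makes in development, had 11 counts over the non-cystic, 2 over the F4/80-low and 41 over the F4/80-high libraries. Its ratio of F4/80-high to F4/80-low counts was 15.5 (interval 4.02 to 132.0). With no filter edgeR called it there (3.86, adjusted p = 0.035). The highest mean of Wnt9b, the ureteric bud ligand that starts nephron formation, was 0.62 ± 0.749 CPM, in F4/80-high regions. Wnt9a stayed at or under 0.412 CPM on average and Wnt6 at or under 0.107 CPM, and for both the region types overlapped.

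**Figure D3:**
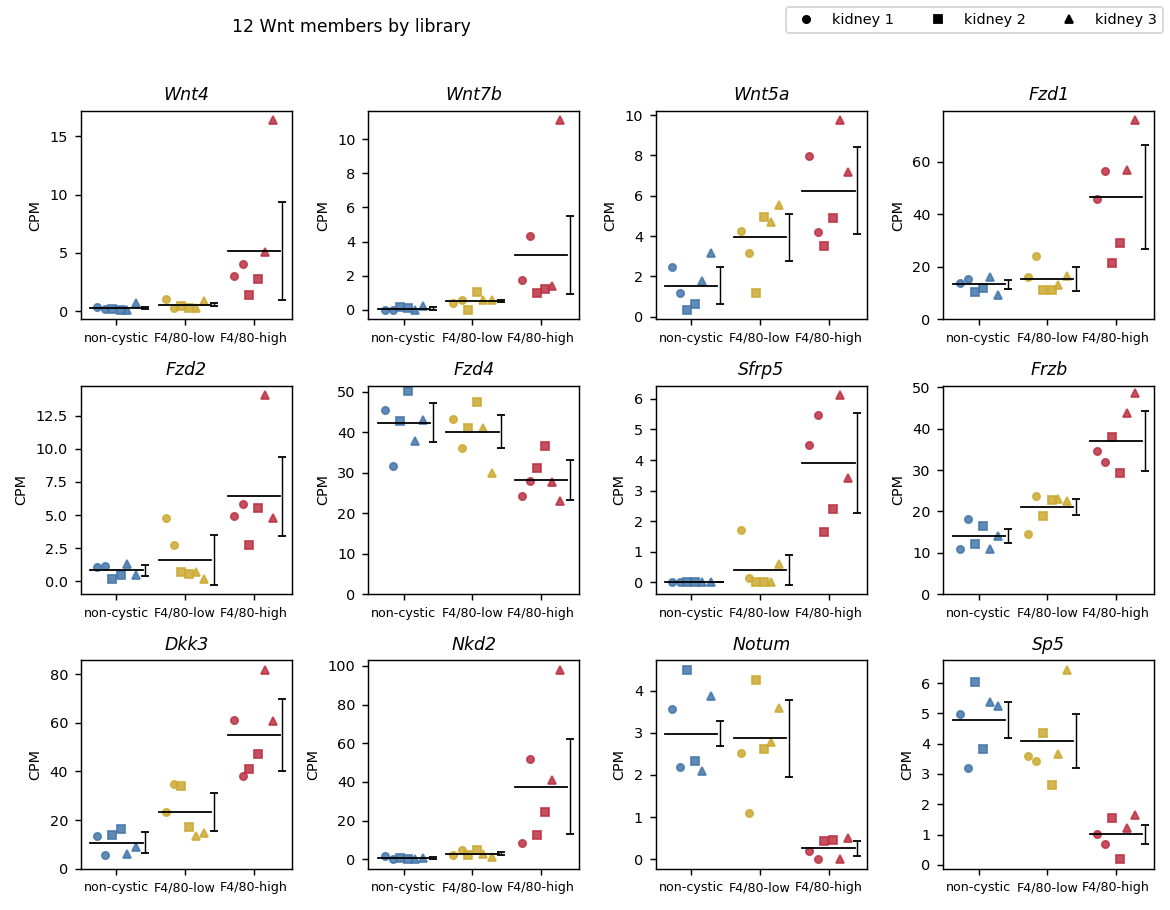
CPM (y axis) of 12 members in each of the 18 libraries, by region type (x axis). Symbols mark the kidney, horizontal lines the mean of the 3 kidney sums and bars its SD. F4/80-high points of Nkd2, Dkk3 and Frzb lie above all others of their panel, those of Notum and Sp5 lie under all others, and Wnt4, Wnt7b and Fzd2 each have 1 F4/80-high library of kidney 3 far above the rest.

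Frizzled receptors moved in both directions. Of 10 listed 8 were tested: 4 rose and 1 fell against non-cystic regions, and 3 rose and 1 fell against F4/80-low regions. Of all genes tested 19.7% rose and 19.5% fell in the first comparison, and 10.3% and 14% in the second. Fzd1 and Fzd4 were the most abundant per length in F4/80-high regions, at 11.1 and 4.19 CPM per kb, with the order reversed in non-cystic regions (3.19 and 6.29).

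Fzd1 (chromosome 5, 4753839 to 4758035), a receptor of the beta-catenin branch, stood at 14.9, 11.5 and 13.7 CPM in non-cystic, 20.1, 11.2 and 15.0 CPM in F4/80-low and 49.8, 25.5 and 64.7 CPM in F4/80-high regions. F4/80-high levels exceeded all others, and the other 2 region types overlapped. It rose by 1.72 ± 0.23 against non-cystic (adjusted p = 0.000497) and by 1.55 ± 0.23 against F4/80-low regions (adjusted p = 0.00226). Both calls were kept in each of the 27 alternative analyses.

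Fzd2 (chromosome 11, 102604396 to 102608058), which also serves Wnt5a signals, stood at 1.15, 0.366 and 1.01 CPM in non-cystic, 3.81, 0.657 and 0.451 CPM in F4/80-low and 5.21, 4.21 and 9.83 CPM in F4/80-high regions. Kidney 1 was the highest of the F4/80-low sums and kidney 3 of the F4/80-high ones. Fzd2 rose by 3.08 ± 0.67 against non-cystic (adjusted p = 0.00607) and by 2.27 ± 0.65 against F4/80-low regions (adjusted p = 0.0333). The second call was not made without the kidney block (1.96, adjusted p = 0.068). It was also not made without kidney 2 (2.06, adjusted p = 0.18) or kidney 3 (1.43, adjusted p = 0.0965), and without kidney 1 the fold change was 3.47.

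Fzd3 (chromosome 14, 65192449 to 65262463), a receptor of the planar polarity branch, stood at 2.56, 2.41 and 4.66 CPM in non-cystic, 2.45, 3.88 and 2.48 CPM in F4/80-low and 6.63, 6.14 and 10.3 CPM in F4/80-high regions. The F4/80-high sums lay above all others. It rose by 1.27 ± 0.35 (adjusted p = 0.0161) against non-cystic and by 1.34 ± 0.35 (adjusted p = 0.022) against F4/80-low regions. The first call was not made without kidney 1 or 2 (adjusted p = 0.114 and 0.0659), nor the second without kidney 1 or 3 (adjusted p = 0.133 and 0.0815). Fzd6, of the same branch, rose from 4.46 ± 0.424 to 7.82 ± 0.998 CPM (SD, n = 3), by 0.81 ± 0.28 (adjusted p = 0.0412), and without any 1 kidney it was not called (adjusted p of 0.052 to 0.295). Fzd6 was also called against F4/80-low regions with scaling by total counts, which raised the median of all genes by 0.48. The same held without F4/80-low library 2 or F4/80-high library 1 of kidney 1 (0.86 and 0.79, adjusted p = 0.048 and 0.0488).

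Fzd4 (chromosome 7, 89404355 to 89413134), the endothelial receptor for the ligand Norrin, stood at 39.2, 47.8 and 39.8 CPM in non-cystic, 40.0, 44.3 and 36.0 CPM in F4/80-low and 25.4, 33.8 and 25.2 CPM in F4/80-high regions. Its F4/80-high sums lay under all others. The log2 fold change was -0.59 ± 0.14 against non-cystic (adjusted p = 0.0092) and -0.52 ± 0.14 against F4/80-low regions (adjusted p = 0.0278), but under scaling by total counts, which raised the median of all genes by 0.61 and 0.48, these became 0.01 and -0.04. The call against non-cystic regions was not made without kidney 1 or 2 (adjusted p = 0.0668 and 0.0748). The call against F4/80-low regions was not made by the DESeq2 Wald test (adjusted p = 0.0575) or without any 1 kidney (adjusted p of 0.0614 to 0.164). The 6 endothelial markers summed to 144.6 to 199.6 CPM in non-cystic, 164.1 to 328.2 CPM in F4/80-low and 165.5 to 258.2 CPM in F4/80-high regions, and 1 of them rose and 0 fell in F4/80-high against non-cystic regions. None was at 0 counts. In that comparison 19.7% of all genes tested rose and 19.5% fell.

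The receptors Fzd5, Fzd7 and Fzd8 were not called in any comparison, and their kidney sums overlapped between each pair of region types. Their mean levels in F4/80-high regions were 3.35 ± 0.312, 5.11 ± 0.583 and 3.40 ± 0.605 CPM. Fzd10 was at most at 0.384 CPM on average and was not tested. Of the co-receptors, Lrp6 had 57.6 ± 2.77 CPM in non-cystic and 45.0 ± 1.57 CPM in F4/80-high regions and was not called (-0.35 ± 0.15, adjusted p = 0.0935), although its F4/80-high sums lay under all others. It was called lower without F4/80-high library 1 of kidney 1 (-0.43, adjusted p = 0.0389) or of kidney 2 (-0.43, adjusted p = 0.0449). Lrp5 was low, at 1.59 ± 0.638 and 1.20 ± 0.263 CPM in those regions, and was not called.

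Ror1 (chromosome 4, 100095791 to 100444765), a receptor tyrosine kinase for Wnt5a, stood at 3.98, 3.22 and 4.74 CPM in non-cystic, 3.94, 1.77 and 2.71 CPM in F4/80-low and 8.15, 4.11 and 9.22 CPM in F4/80-high regions. The F4/80-high sums lay above the F4/80-low ones, and kidney 2 overlapped with non-cystic regions. Ror1 rose against F4/80-low regions by 1.33 ± 0.31 (adjusted p = 0.0134) and was not called against non-cystic regions (0.78 ± 0.30, adjusted p = 0.0645). Against non-cystic regions Ror1 was called without library 1 of kidney 2 of either region type (0.88 and 0.92, adjusted p = 0.0435 and 0.0324). It was also called with scaling by total counts, which raised the median of all genes by 0.61. The call against F4/80-low regions was not made without any 1 kidney (adjusted p of 0.0609 to 0.0656). Ror2, the other member of the family, had 1.03 ± 0.848 CPM in F4/80-high regions, overlapped between region types and was not tested.

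Secreted inhibitors rose or were not called. Of 8 listed 7 were tested: 4 rose against non-cystic and 3 against F4/80-low regions, and none fell. Over all genes tested 19.7% and 10.3% rose, and 19.5% and 14% fell. In F4/80-high regions secreted inhibitors were the most abundant members per length after Ctnnb1, with Dkk3 at 16.4, Dkk2 at 15.9, Frzb at 11.4 and Sfrp1 at 11.3 CPM per kb. In non-cystic regions Sfrp1 led this group at 19.0 CPM per kb.

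Sfrp5 (chromosome 19, 42197971 to 42202252), a secreted Frizzled-related protein that binds Wnt ligands, had 0 counts in each of the 6 non-cystic libraries, 18 counts over the F4/80-low and 221 over the F4/80-high ones. Its kidney sums were 0.952, 0 and 0.301 CPM in F4/80-low and 4.84, 2.03 and 4.86 CPM in F4/80-high regions, which did not overlap. The filter, which Sfrp5 would not have passed without its F4/80-high sums, favours this. With the non-cystic group set to a floor of 3 counts over its libraries, F4/80-high regions were at least 48.7-fold higher, and edgeR called the difference (adjusted p = 0.00178). Against F4/80-low regions Sfrp5 rose by 3.58 ± 0.78 (adjusted p = 0.0157), and by 4.80 without F4/80-low library 1 of kidney 1. Without kidney 1 the fold change was 4.72 and not called (adjusted p = 0.0572).

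Frzb (chromosome 2, 80411970 to 80447625), also a Frizzled-related Wnt binder, stood at 14.9, 14.9 and 12.1 CPM in non-cystic, 19.2, 20.7 and 23.2 CPM in F4/80-low and 32.6, 32.9 and 45.4 CPM in F4/80-high regions. The 3 region types did not overlap. It rose by 1.38 ± 0.19 against non-cystic (adjusted p = 0.000615) and by 0.81 ± 0.19 against F4/80-low regions (adjusted p = 0.0136). The second call was not made without kidney 1 (0.83, adjusted p = 0.0794) or kidney 2 (0.86, adjusted p = 0.0664).

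Dkk3 (chromosome 7, 112116017 to 112159057), the divergent member of the Dickkopf family, stood at 9.72, 15.5 and 7.07 CPM in non-cystic, 29.2, 26.6 and 14.4 CPM in F4/80-low and 49.2, 44.0 and 71.6 CPM in F4/80-high regions. Its F4/80-high sums lay above all others, and F4/80-low kidney 3 fell within the non-cystic range. Dkk3 rose by 2.42 ± 0.37 against non-cystic (adjusted p = 0.00169) and by 1.30 ± 0.35 against F4/80-low regions (adjusted p = 0.0319). With no filter the second call was not made (adjusted p = 0.0693). Dkk2, which binds LRP6, rose from 22.6 ± 2.41 CPM in non-cystic to 59.1 ± 17.7 CPM in F4/80-high regions (SD, n = 3), by 1.33 ± 0.30 (adjusted p = 0.00808). In F4/80-low regions Dkk2 had 45.9 ± 29.7 CPM, with kidney 1 at 80.1 CPM and kidneys 2 and 3 at 26.3 and 31.4 CPM.

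Sfrp1, the most abundant inhibitor in non-cystic regions, had 83.2 ± 9.98 CPM there, 56.7 ± 21.3 CPM in F4/80-low and 49.6 ± 16.3 CPM in F4/80-high regions (SD, n = 3). It was not called in edgeR (-0.76 ± 0.31 against non-cystic, adjusted p = 0.08), but the DESeq2 Wald test called it lower (-0.76, adjusted p = 0.0486). So did edgeR without kidney 2 (-1.13), without non-cystic library 2 of kidney 1 (-0.99), and without library 1 of kidney 2 of non-cystic (-0.87) or F4/80-high regions (-0.93). Wif1, which binds Wnt ligands outside the cell, had 1.32 ± 0.630 CPM in F4/80-high regions, overlapped between region types and was not called. Sfrp4 was at most at 0.301 CPM on average and was not tested.

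Sfrp2, a further Frizzled-related Wnt binder, was high or absent by library rather than by region type. Its 6 non-cystic libraries ran from 0 to 7.01 CPM, the F4/80-low ones from 0 to 11.6 CPM and the F4/80-high ones from 0 to 14.1 CPM, and it was not called in any comparison. The 2 libraries of 1 kidney and region type could differ widely. In F4/80-high regions, kidney 2 had 0 and 10.2 CPM in its libraries 1 and 2, and kidney 3 had 14.1 and 0.378 CPM.

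The sum of 5 podocyte markers, genes of the glomerular filter cells, differed between the same libraries. It was 26.8 and 254.3 CPM in F4/80-high libraries 1 and 2 of kidney 2, and 437.1 and 74.5 CPM in those of kidney 3. In F4/80-low regions kidney 1 had Sfrp2 at 5.99 and 11.6 CPM and podocyte markers at 225.6 and 208.2 CPM, while kidney 3 had Sfrp2 at 0 in both libraries and podocyte markers at 16.2 and 6.74 CPM. Not all libraries went this way. Non-cystic library 2 of kidney 2 had Sfrp2 at 0.123 CPM and podocyte markers at 52.8 CPM. In non-cystic library 1 of kidney 1 they were at 3.38 and 45.9 CPM. No podocyte marker was called in any of the 3 comparisons and none was at 0 counts in a region type. The part of podocytes in the Sfrp2 level was not tested.

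**Figure D4:**
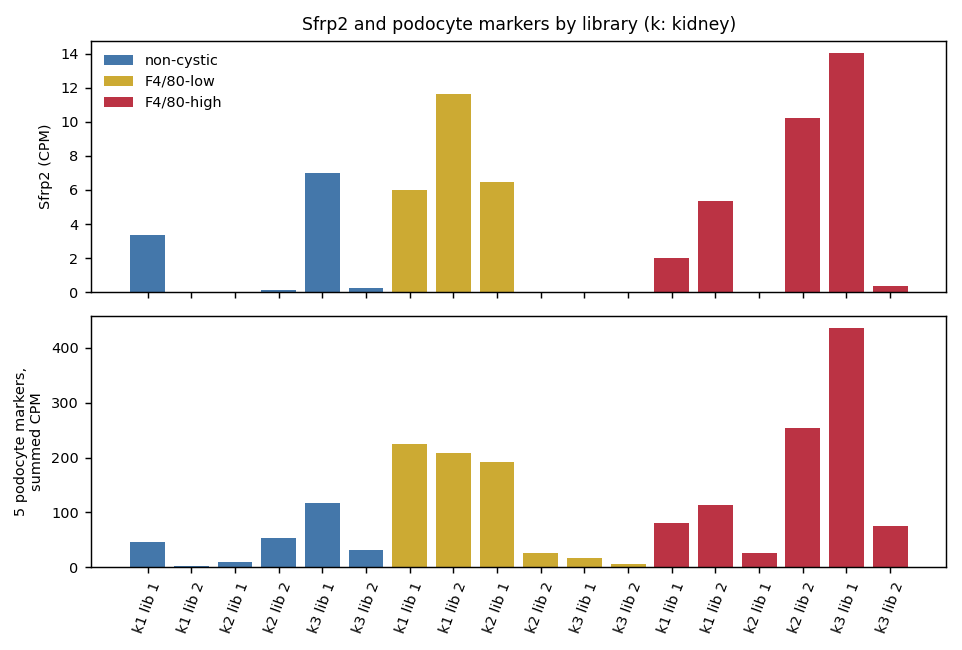
Sfrp2 level in CPM (upper bars) and summed CPM of 5 podocyte markers (lower bars) in the 18 libraries (x axis, by kidney and library), coloured by region type. The 2 highest libraries for Sfrp2 are F4/80-high library 1 of kidney 3 and F4/80-low library 2 of kidney 1, at 14.1 and 11.6 CPM.

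R-spondins bind LGR receptors and protect Frizzled from the ligases RNF43 and ZNRF3, which raises the response to Wnt. Of 5 listed R-spondin and LGR genes 2 were tested. Rspo3 rose and Lgr4 fell against non-cystic regions, and neither was called against F4/80-low regions.

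Rspo3 (chromosome 10, 29452416 to 29535867) stood at 0, 0.0732 and 0.0776 CPM in non-cystic, 0.612, 0.788 and 0.677 CPM in F4/80-low and 2.42, 0.198 and 1.16 CPM in F4/80-high regions. F4/80-low and F4/80-high sums overlapped, and all lay above the non-cystic ones. Rspo3 would not have passed the filter without its F4/80-high sums, which favours their lying above the non-cystic ones. Its counts were 71 over the F4/80-high and 2 over the non-cystic libraries, a ratio of 23.4 with an interval of 6.26 to 197.4. The fitted change was 4.12 ± 1.15 (adjusted p = 0.0175), and without kidney 1 it was 2.83 and not called (adjusted p = 0.165). It was 4.84 without non-cystic library 2 of kidney 2.

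Lgr4 (chromosome 2, 109917647 to 110014257), the R-spondin receptor with the highest level here, stood at 46.2, 52.2 and 79.0 CPM in non-cystic, 43.4, 43.8 and 50.6 CPM in F4/80-low and 37.2, 27.1 and 17.0 CPM in F4/80-high regions. Its F4/80-high sums lay under all others. It fell by 1.12 ± 0.31 on the log2 scale against non-cystic regions (adjusted p = 0.0189), and the call was not made with scaling by total counts (-0.55, adjusted p = 0.151) or without F4/80-high library 2 of kidney 1 (-0.97, adjusted p = 0.0706). Lgr4 was called lower against F4/80-low regions without F4/80-high library 1 of kidney 1 (-0.98, adjusted p = 0.0198). In F4/80-high against non-cystic regions 5 of 6 proximal tubule and 2 of 4 thick ascending limb markers fell. So did 4 of 5 distal convoluted and connecting tubule, 1 of 6 principal cell and 2 of 5 intercalated cell markers. None of these markers rose, and over all genes tested 19.5% fell. The part of these cell types in the Lgr4 level was not tested.

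Lgr5, a target gene and stem cell marker of other epithelia, was too low to be tested. It stood at 0.707, 0.512 and 0 CPM in non-cystic, 0.204, 0.525 and 0.301 CPM in F4/80-low and 0.316, 0.0990 and 0.387 CPM in F4/80-high regions, which overlapped. The third receptor, Lgr6, had 31 counts over the F4/80-high libraries against 2 in each of the other region types (ratio to non-cystic 10.2, interval 2.61 to 88.3). Of the 31 counts 19 came from library 2 of kidney 3. The ligand Rspo1 had 20 F4/80-high against 3 non-cystic counts (ratio 4.40, interval 1.31 to 23.1). Neither was called in edgeR with no filter.

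Feedback inhibitors and targets were called in both directions. Of all genes tested 19.7% rose and 19.5% fell against non-cystic regions, and 10.3% and 14% against F4/80-low regions. Of 7 feedback inhibitors and targets tested, Nkd1 and Nkd2 rose and Notum and Sp5 fell against non-cystic regions. Axin2, Rnf43 and Znrf3 were not called. Nkd2 also rose, and Notum and Sp5 fell, against F4/80-low regions. These genes are commonly read as outputs of beta-catenin and TCF/LEF. The 250 bases before the start of Sp5, Nkd2 and Axin2, which fell, rose and were not called, are shown 5′ to 3′ from RefSeq (GRCm38.p6), with capitals for TCF/LEF heptamers.
Sp5, chr2:70474673-70474922, plus strand: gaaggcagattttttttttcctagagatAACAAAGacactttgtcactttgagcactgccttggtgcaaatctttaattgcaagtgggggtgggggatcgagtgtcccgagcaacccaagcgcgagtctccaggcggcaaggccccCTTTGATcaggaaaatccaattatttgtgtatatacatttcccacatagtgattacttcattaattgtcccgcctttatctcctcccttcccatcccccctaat
Nkd2, chr13:73847632-73847881, minus strand: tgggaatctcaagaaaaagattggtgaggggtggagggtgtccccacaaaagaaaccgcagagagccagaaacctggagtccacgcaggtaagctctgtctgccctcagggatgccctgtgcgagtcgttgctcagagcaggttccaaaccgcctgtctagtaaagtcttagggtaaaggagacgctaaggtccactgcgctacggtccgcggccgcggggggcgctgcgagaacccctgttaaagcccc
Axin2, chr11:108920099-108920348, plus strand: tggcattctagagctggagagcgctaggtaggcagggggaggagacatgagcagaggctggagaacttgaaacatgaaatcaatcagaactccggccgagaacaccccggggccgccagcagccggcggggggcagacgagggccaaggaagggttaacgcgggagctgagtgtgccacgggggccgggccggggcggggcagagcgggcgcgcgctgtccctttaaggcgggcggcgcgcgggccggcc

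Matches to CTTTGAA or CTTTGAT or CTTTGTA or CTTTGTT were counted on both strands, and on 1 strand the 4 words cannot overlap, while words on opposite strands can share their last bases. Sp5 held 2, CTTTGTT on the minus strand 222 bases before the start and CTTTGAT on the plus strand 104 bases before it. The windows of Nkd2 and Axin2 had no match. Of 34 members with an entry 6 had a match in a window, or 17.6% (Sp5, Fzd7, Lef1, Tcf7l2, Wnt11 and Wnt5b), against 16.8% of 27025 genes and 14.8% of all 32851 windows. Notum had no entry. A match describes letters only, and binding was not measured.

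Nkd2 (chromosome 13, 73818534 to 73847631), which binds Dishevelled and dampens Wnt signals, stood at 1.06, 0.439 and 0.311 CPM in non-cystic, 3.54, 3.22 and 2.03 CPM in F4/80-low and 28.4, 19.0 and 65.5 CPM in F4/80-high regions. The 3 region types did not overlap, and kidney 3 was the lowest in non-cystic and F4/80-low regions and the highest in F4/80-high regions. Nkd2 rose by 5.89 ± 0.62 against non-cystic (adjusted p = 0.000384) and by 3.53 ± 0.52 against F4/80-low regions (adjusted p = 0.00362). Without kidney 3 these were 5.0 and 2.78, and without non-cystic library 1 of kidney 1 the first was 6.68, all called. Per length Nkd2 went from 0.125 to 7.79 CPM per kb. Its relative Nkd1 rose from 0.618 ± 0.291 to 4.49 ± 3.92 CPM (SD, n = 3), by 2.71 ± 0.56 (adjusted p = 0.00453), and was at 1.52 ± 0.391 CPM in F4/80-low regions.

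Notum (chromosome 11, 120653788 to 120661175), an enzyme that strips the lipid from Wnt proteins, stood at 2.92, 3.29 and 2.72 CPM in non-cystic, 1.84, 3.55 and 3.23 CPM in F4/80-low and 0.105, 0.446 and 0.221 CPM in F4/80-high regions. The F4/80-high sums lay under all others, while the other 2 region types overlapped. Only its non-cystic and F4/80-low sums reached the filter's cutoff, which favours low F4/80-high sums. Its log2 fold change was -3.58 ± 0.52 against non-cystic (adjusted p = 0.000764) and -3.47 ± 0.51 against F4/80-low regions (adjusted p = 0.00244). Notum overlaps Myadml2os and Notumos on the other strand, whose reads cannot be told from its own.

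Sp5 (chromosome 2, 70474923 to 70477729), a zinc-finger repressor and direct target of beta-catenin signalling, stood at 4.15, 4.83 and 5.36 CPM in non-cystic, 3.54, 3.61 and 5.11 CPM in F4/80-low and 0.842, 0.792 and 1.38 CPM in F4/80-high regions. As for Notum, the F4/80-high sums lay under all others and the other region types overlapped. The log2 fold change was -2.27 ± 0.33 against non-cystic (adjusted p = 0.000841) and -2.03 ± 0.33 against F4/80-low regions (adjusted p = 0.00336). The calls of Nkd2, Notum and Sp5 in both comparisons were kept in each alternative that could fit them.

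Axin2 (chromosome 11, 108920349 to 108950783), the scaffold of the beta-catenin destruction complex that is itself a target, stood at 0.177, 0.146 and 0.621 CPM in non-cystic, 0.340, 0.263 and 0.0752 CPM in F4/80-low and 0.947, 0.743 and 1.49 CPM in F4/80-high regions. Every F4/80-high sum lay above the others, but only those sums reached the filter's cutoff, which favours this order. Axin2 was not called: the log2 fold change was 1.77 ± 0.77 against non-cystic (adjusted p = 0.0975) and 2.06 ± 0.79 against F4/80-low regions (adjusted p = 0.0859). It was called in both comparisons with scaling by total counts (2.38 and 2.51), which raised the median of all genes by 0.61 and 0.48. Axin2 was also called against non-cystic regions without non-cystic library 1 of kidney 3 (2.94, adjusted p = 0.0266). Against F4/80-low regions it was called without F4/80-low library 2 of kidney 2 (2.80, adjusted p = 0.0498). The receptor ligase genes Rnf43 and Znrf3 had 1.67 ± 0.47 and 20.7 ± 1.38 CPM in non-cystic and 1.21 ± 0.458 and 17.3 ± 5.69 CPM in F4/80-high regions (SD, n = 3), overlapped and were not called.

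Ctnnb1 (chromosome 9, 120929216 to 120960507), which encodes beta-catenin, was the most abundant member. It stood at 162, 166 and 183 CPM in non-cystic, 185, 187 and 186 CPM in F4/80-low and 239.9, 210.1 and 215 CPM in F4/80-high regions. The 3 region types did not overlap, yet the log2 fold change of 0.38 ± 0.18 against non-cystic regions was not called (adjusted p = 0.132). With scaling by total counts, which raised the median of all genes by 0.61, it was 0.99 and called (adjusted p = 0.0016). With that scaling 41.2% of all genes were called higher. Axin1, the constitutive scaffold, had 10.6 ± 2.58, 10.8 ± 2.41 and 11.0 ± 1.26 CPM in the 3 region types (SD, n = 3) and 0.04 ± 0.26 on the log2 scale for F4/80-high against non-cystic regions.

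TCF/LEF factors carry beta-catenin to its target genes. Of the 4, Tcf7 and Tcf7l1 rose against non-cystic regions, where 19.7% of all genes did, and none was called against F4/80-low regions. Scaling by total counts raised the median of all genes by 0.48 against F4/80-low regions, where 26.3% of all genes were then called higher. All 4 factors were among them: Lef1 (2.30, adjusted p = 0.042), Tcf7 (1.77, 0.0335), Tcf7l1 (1.42, 0.0213) and Tcf7l2 (0.86, 0.0127). Lef1 (2.03, adjusted p = 0.0398) and Tcf7l2 (0.91, 0.00554) were then also called against non-cystic regions. There the median of all genes rose by 0.61, and 41.2% of all genes were called higher. Tcf7l1 rose from 2.22 ± 0.682 to 5.72 ± 0.679 CPM (SD, n = 3), by 1.40 ± 0.35 (adjusted p = 0.0109). Tcf7, also a T cell gene, rose from 0.688 ± 0.218 to 2.46 ± 1.61 CPM, by 1.73 ± 0.54 (adjusted p = 0.0295), or by 1.31 and not called without F4/80-high library 2 of kidney 3 (adjusted p = 0.1), which had 7.43 CPM.

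The 6 T, NK and B cell markers summed to 6.21 to 14.1 CPM in non-cystic, 14.5 to 20.3 CPM in F4/80-low and 57.6 to 73.7 CPM in F4/80-high regions, and 5 of 6 rose in F4/80-high against non-cystic regions. In that comparison 19.7% of all genes tested rose. No marker of these cells was at 0 counts, and their part in the Tcf7 and Lef1 levels was not tested. Lef1 (chromosome 3, 131110471 to 131224356) stood at 0.177, 0.366 and 0.699 CPM in non-cystic, 0.340, 0.263 and 0.226 CPM in F4/80-low and 0.579, 0.891 and 1.99 CPM in F4/80-high regions. Kidney 1 of the F4/80-high sums lay within the non-cystic range, and Lef1 was not called (1.42 ± 0.67, adjusted p = 0.121). It was called against F4/80-low regions without F4/80-low or F4/80-high library 1 of kidney 1 (2.33 and 2.08, adjusted p = 0.0443 and 0.0498). Tcf7l2, the most abundant factor, had 44.0 ± 3.58 CPM in non-cystic and 56.1 ± 22.6 CPM in F4/80-high regions, where library 1 of kidney 1 reached 107.6 CPM, and was not called.

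The tissue markers that rose beside the higher members were 9 of 10 macrophage, 7 of 7 tested fibroblast, 5 of 6 smooth muscle and pericyte and 5 of 5 injured tubule markers in F4/80-high against non-cystic regions. Against F4/80-low regions they were 9 of 10, 6 of 7, 1 of 6 and 4 of 5. Over all genes tested 19.7% rose in the first comparison and 10.3% in the second. Of T, NK and B cell markers 5 of 6 and 4 of 6 rose. Of endothelial markers it was 1 of 6 and 0 of 6, and no podocyte marker rose in either. The macrophage markers include Adgre1, which encodes F4/80, by which the regions were sorted. The sorting thus favours their rise.

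Several calls rested on few kidneys or libraries. For F4/80-high against non-cystic regions, 13 of 23 calls were kept in each of the 27 alternatives that could fit them: those of Wnt4, Wnt5a, Wnt7b, Fzd1, Fzd2, Sfrp5, Frzb, Dkk2, Dkk3, Nkd1, Nkd2, Notum and Sp5. Without F4/80-high library 2 of kidney 1, the calls of Wnt7a (4.39, adjusted p = 0.0758), Wnt10a (3.30, 0.0581), Fzd6 (0.78, 0.0815), Lgr4 (-0.97, 0.0706) and Tcf7 (1.59, 0.0572) were not made. Without F4/80-high library 2 of kidney 3 this held for Wnt2 (2.78, 0.0636), Wnt7a (4.20, 0.0532), Fzd6 (0.67, 0.102) and Tcf7 (1.31, 0.1). Without F4/80-high library 2 of kidney 2 it held for Wnt7a (4.61, 0.0506) and Fzd6 (0.72, 0.0666), and without library 1 of that kidney for Wnt10a (3.08, 0.0806).

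Leaving out a kidney ended further calls. In F4/80-high against non-cystic regions Wnt7a was not called without kidney 1 or 3 (adjusted p = 0.113 and 0.0836), Wnt10a without kidney 1 (0.11), Lgr4 without kidney 2 (0.0797), Tcf7 without any 1 kidney (0.0903 to 0.154) and Tcf7l1 without kidney 2 (0.0765). Against F4/80-low regions Wnt7b was not called without kidney 1 or 3 (adjusted p = 0.124 and 0.118), and Dkk3 without kidney 1 (0.0876).

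Scaling by total counts also added calls of Wnt5a (1.13, adjusted p = 0.0357), Nkd1 (1.73, 0.042) and Ctnnb1 (0.74, 0.0122) against F4/80-low regions. It raised the median of all genes there by 0.48.

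Leaving out a non-cystic library had such effects as well. Without library 1 of kidney 2, Wnt7a (4.56, adjusted p = 0.0562), Wnt10a (3.02, 0.0832) and Tcf7 (1.5, 0.0601) were not called. Without library 2 of kidney 1 the same held for Wnt2 (2.68, 0.0732) and Tcf7 (1.48, 0.0785), without library 1 of kidney 1 for Fzd6 (0.73, 0.0751), without library 1 of kidney 3 for Wnt2 (2.49, 0.0746) and without library 2 of kidney 3 for Fzd6 (0.79, 0.0582). Wnt2 had 4.2 without non-cystic library 1 of kidney 1. F4/80-low libraries enter this comparison through the filter, the scaling, the kidney block and the pooled spread. Of these libraries, Wnt7a (4.79, 0.0516) and Fzd6 (0.81, 0.0552) were not called without library 1 of kidney 1, Fzd6 (0.81, 0.0568) without library 1 of kidney 2 and Wnt10a (3.53, 0.0543) without library 1 of kidney 3.

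For F4/80-high against F4/80-low regions, 5 of 14 calls were kept throughout: those of Wnt4, Fzd1, Nkd2, Notum and Sp5. Among F4/80-high libraries, Wnt7b (2.17, adjusted p = 0.0566) and Fzd4 (-0.54, 0.0554) were not called without library 2 of kidney 1, Dkk3 (1.18, 0.0653) without library 1 of kidney 1, and Fzd2 (2.06, 0.0546) and Ror1 (1.15, 0.0543) without library 2 of kidney 2. Among F4/80-low libraries, Dkk3 (1.2, 0.0601) was not called without library 1 of kidney 1, Fzd2 (2.20, 0.0545) without library 2 of kidney 1, Wnt7b (2.12, 0.0808) without library 1 of kidney 2, and Fzd2 (2.29, 0.0572) and Fzd4 (-0.44, 0.0698) without library 1 of kidney 3. Without F4/80-low library 2 of kidney 2, the library with the highest injured tubule sum of that region type (1229 CPM), Wnt7b had 3.05. Dkk3 (1.28, 0.0561) was not called without non-cystic library 1 of kidney 1.

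Other genes of the pathway were drawn from 79 genes in 7 groups, of which 66 were tested. In F4/80-high against non-cystic regions 18 of the 66 rose and 8 fell, where 19.7% and 19.5% of all genes tested did. Against F4/80-low regions 9 rose and 4 fell, where 10.3% and 14% of all genes did. In F4/80-low against non-cystic regions 1 rose, where 1.51% of all genes did. Their median log2 fold change was 0.33 in F4/80-high against non-cystic regions.

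Among 9 tested further genes used as targets 6 rose and none fell against non-cystic regions, where 19.7% of all genes rose and 19.5% fell. Cd44, a hyaluronan and osteopontin receptor, was at 3.15 ± 0.208 CPM in non-cystic, 16.2 ± 4.31 CPM in F4/80-low and 50.8 ± 25.4 CPM in F4/80-high regions (SD, n = 3). It was the 1 gene that also rose in F4/80-low against non-cystic regions (2.35 ± 0.27, adjusted p = 0.0051). The protease gene Mmp7 rose by 6.77 ± 0.83 and the matricellular gene Ccn4 by 2.92 ± 0.46 against non-cystic regions (adjusted p = 0.00119 and 0.00191).

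Of 19 destruction complex and relay genes 3 rose and 4 fell against non-cystic regions, shares near the 19.7% and 19.5% of all genes tested. Dvl2, a Dishevelled relay protein, had 215.2 CPM in non-cystic and 71.6 CPM in F4/80-high regions on average, with -1.61 ± 0.25 on the log2 scale (adjusted p = 0.00106). Csnk1e, which encodes casein kinase 1 epsilon, rose by 1.47 ± 0.26, and Dact3, a Dishevelled antagonist, by 2.81 ± 0.58. Of 11 membrane and extracellular modulators 5 rose and 2 fell. Ptk7, a polarity co-receptor, rose by 2.82 ± 0.45, Adgra2, a cofactor for Wnt7 ligands at endothelium, by 1.53 ± 0.26, and the glypican gene Gpc4 had -0.88 ± 0.16 (adjusted p = 0.00136, 0.00178 and 0.00241).

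Of 11 planar polarity genes 3 rose and 1 fell against non-cystic regions, where 19.7% and 19.5% of all genes tested did. Prickle3 rose by 1.52 ± 0.30, Prickle2 by 1.35 ± 0.35 and Vangl2 by 1.27 ± 0.40. Of 12 nuclear cofactors 1 rose, Pygo1, by 2.91 ± 0.61. The 2 genes for ligand acylation and secretion, Porcn and Wls, were not called, and Wls had 162.8 CPM in non-cystic and 159.2 CPM in F4/80-high regions on average. Of 2 tested family members outside the list, Sostdc1, a secreted antagonist of BMP and Wnt signals, had -0.99 ± 0.26 (adjusted p = 0.0145) and Wnt16 was not called.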

How the data were processed

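The authors deposited raw read counts per gene for 18 libraries, with no normalization. Per the submitters' processing notes, reads were handled with fastp 0.20.1, FastQC 0.11.9 and HTSeq 0.11.0 on mm10, also called GRCm38. Which aligner, annotation and strand setting were used is not given in the sources used here. Symbols were found for 32158 of 32285 identifiers.

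Both libraries of each kidney and region type were added, giving 9 sums. Titles number the kidneys, and each kidney gave all 3 region types, which pairs them. The test was edgeR 4.0.16 in R 4.3.3, with TMM scaling, filterByExpr by region type, a robust quasi-likelihood fit, the kidney as block and 4 residual degrees of freedom. The procedure was tested on simulated counts without differences between kidneys, in which only genes with higher counts were changed. This does not show how it performs for members with few counts. The filter came to about 0.649 CPM in 3 sums and kept 16034 genes with 99.8% of the counts. An SE was obtained by dividing the log2 fold change, without its sign, by the root of F. Ratios against groups of 1 to 3 counts have exact 95% intervals, and a group at 0 was set to 3 counts. Both cover counting error only, as no molecular identifiers are described. With the kidney as block, p-values measure how far region differences vary from kidney to kidney. If the kidneys are not from separate mice, they do not measure the spread between mice.

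The alternatives were DESeq2 1.42.0 (its size factors, its Wald test), total counts, no filter, at least 50 counts in 3 sums, no kidney block, and leaving out each kidney or each library. Members, roles, markers and other pathway genes were listed with earlier results of these data known. Each member with 10 or more counts was to be named. Values per kidney were to be given for members called in either comparison with F4/80-low regions, for the 8 highest and 8 lowest fold changes called in F4/80-high against non-cystic regions, and for Ctnnb1, Axin2, Lef1 and Lgr5. Of the other pathway genes, the 3 with the smallest p-values in each group could be named. Beyond this rule, the values of Dkk2 per kidney and the promoters shown were chosen after values were seen.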

Additional observations from a re-analysis of the deposited data

Results flagged for a closer look

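In 17 of 123 sets of 6 libraries, 1 library lay farther from the others than Dixon's 95% limit for 6 values allows. For 6 independent values with a normal spread, chance alone gives about 1 in 20 such sets. That rate cannot be applied here, as libraries of the same kidney are not independent and some levels lie near the floor. Where the other libraries had no count, as for Wnt7a in non-cystic regions, any count passes the limit. Whether 17 of 123 is more than chance gives was thus not tested. All 17 were the highest library of their set.

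F4/80-high library 2 of kidney 3 stood out for Wnt2 (2.898 CPM, next 1.204), Wnt4 (16.38 CPM, next 5.118), Wnt7b (11.09 CPM, next 4.321) and Tcf7 (7.435 CPM, next 2.274). Library 1 of the same kidney and region type stood out for Fzd2 (14.05 CPM, next 5.799). F4/80-high library 1 of kidney 1 stood out for Rspo3 (4.282 CPM, next 1.706), Znrf3 (30.28 CPM, next 17.85), Ctnnb1 (276.9 CPM, next 218.6) and Tcf7l2 (107.6 CPM, next 57.77).

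Among F4/80-low libraries, library 1 of kidney 1 stood out for Wnt2 (0.3991 CPM, the others at 0) and Sfrp5 (1.729 CPM, next 0.5988), and library 2 of kidney 1 for Wnt7a (1.507 CPM, the others at 0). Among non-cystic libraries, library 2 of kidney 2 stood out for Wnt7a (0.2462 CPM, the others at 0) and Wnt10a (1.231 CPM, the others at 0). There Fzd6 was highest in library 2 of kidney 1 (5.863 CPM, next 4.439), Fzd8 in library 2 of kidney 3 (9.321 CPM, next 3.855) and Wif1 in library 1 of kidney 3 (2.804 CPM, next 0.8895).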

How the results depend on the processing

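In F4/80-low against non-cystic regions the number of higher members was 0, and it became 1 with no filter and 2 with the DESeq2 Wald test. It was 0 to 2 without 1 kidney and 0 without any 1 library. For F4/80-high against non-cystic regions the 19 higher members became 10 with the stricter filter, where 13 of the 23 calls could be fitted, and with total counts 19 higher and 4 lower became 24 and 2. The log2 fold change of Fzd4 turned positive, at 0.0139, with total counts, which shifted the median of all genes by 0.61. Without 1 kidney there were 12 to 14 higher and 3 to 4 lower members, and without 1 library 15 to 19 and 3 to 6. For F4/80-high against F4/80-low regions the 11 higher members became 20 with total counts and 7 with the stricter filter, where 9 of the 14 calls could be fitted. Without 1 kidney there were 4 to 7 higher and 2 lower members, and without 1 library 9 to 13 and 2 to 5. Refits without a kidney have fewer samples. The cause of the other differences was not tested. DESeq2 size factors gave the same numbers of calls as the scaling used. Without the kidney block there were 19 higher and 4 lower members against non-cystic regions, 10 and 3 against F4/80-low regions, and 0 in F4/80-low against non-cystic regions, with Fzd2 as the 1 call lost. Members under about 1 CPM rest on few counts, and differences there may have been missed.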
